A study of Mus musculus with 8 samples.

Results

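The genes of the ERBB receptors and of their ligands were examined in ATAC-seq peak lists of cultured mouse mammary tumor cells. The set held 10 genes, the receptors Egfr, Erbb2, Erbb3 and Erbb4 and the ligands Areg, Ereg, Tgfa, Hbegf, Btc and Nrg1, of 21938 protein-coding genes in the annotation (GENCODE M21). A peak, a stretch where reads of open chromatin pile up, was assigned to a gene when it overlapped the gene body or lay within 10 kb of a transcription start site (TSS) of the gene. This gave 515 of the 546932 peaks in all libraries. Peaks of different libraries that overlapped were merged into regions, of which 168 of 183173 lay at these genes.

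ERBB proteins are receptor tyrosine kinases of the cell surface that signal as pairs after a ligand binds, mainly through the RAS-MAPK and PI3K-AKT pathways. The ligands of the EGF family are made as membrane-bound precursors and released by sheddases. In the mammary gland, EGFR signaling through amphiregulin takes part in ductal growth at puberty, neuregulin signaling through ERBB3 and ERBB4 in the maturation of luminal and milk-producing cells, and amplification of ERBB2 defines a class of breast cancer.

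All cells were cultured lines from tumors driven by the polyomavirus middle T oncogene (PyMT) under the MMTV promoter, in mice of the strain given as FBV/N. They were either WT or carried a conditional knockout of the Hippo pathway kinase gene Lats1 (Lats1-CKO), which by the study's account acts in epithelial cells. Each genotype was sorted into luminal (EpCAM-high; CD49f-high) and basal-like (EpCAM-low; CD49f-high) cells and grown again for a short time before Tn5 treatment of the nuclei, which gave 4 groups of 2 libraries. The luminal libraries were named BM1 and BM5 in WT and BM3 and BM7 in Lats1-CKO cells, and the basal-like ones BM2 and BM6 in WT and BM4 and BM8 in Lats1-CKO cells. The viral oncoprotein was thus present in every group, and the serum of the culture medium, a source of growth factors, was shared as well. The labels do not say whether the libraries of a group came from separate tumors or lines, so p-values measure only the spread between these libraries, which may be technical.

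BM3 stood apart. It held 14753 peaks, against 51497 to 99022 in the other 7 libraries, and differences that turn on it are given with and without it. A percentile in BM3 is a rank among this shorter list and is not comparable with the others. The study discarded 1 replicate of this group for quality when it combined replicates, without naming it in the text. Lats1 itself had no peak in BM3 and 3 to 6 peaks in each other library, including the Lats1-CKO ones. A peak within 1 kb of its TSS had a score percentile (its rank by score among the peaks of its own library, from 0 to 100) of 53.6 to 81.5 in those 7, and such a peak does not show whether the coding sequence was intact. Of 10 luminal marker genes, 10, 10, 7 and 10 showed a peak no farther than 1 kb from a TSS in BM1, BM5, BM3 and BM7, against 9, 8, 4 and 4 in BM2, BM6, BM4 and BM8. Epcam, the gene of the sorting marker, had none in BM4 and BM8. Of 10 basal-like marker genes, 5, 5, 3 and 8 had one in the same luminal libraries and 5, 6, 7 and 5 in the basal-like ones, so this list did not follow the sort. Krt5, a defining basal keratin, had one in BM7 alone. Of 7 fibroblast genes, 2, 2, 0 and 2 carried one in the luminal libraries BM1, BM5, BM3 and BM7 and 4, 3, 4 and 4 in the basal-like libraries BM2, BM6, BM4 and BM8, so this list did follow the sort. Outside BM3, immune genes had one for 1 to 4 of 6 and endothelial genes for 0 to 2 of 5, and the part of other cells in the values below was not tested. Within sorted cells, a region open in fewer cells and a region less open in each cell cannot be told apart.

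The number of peaks at the 10 genes followed the size of the library. WT luminal libraries held 71 (BM1) and 57 (BM5) such peaks and WT basal-like libraries 71 (BM2) and 49 (BM6). Lats1-CKO luminal libraries held 14 (BM3) and 89 (BM7) and in Lats1-CKO basal-like cells there were 81 (BM4) and 83 (BM8). All Lats1-CKO libraries but BM3 thus lay above all WT libraries, and these were also the 3 longest peak lists. The means were 66.8 ± 35.3 (SD, n = 4) in Lats1-CKO and 62 ± 10.9 (SD, n = 4) in WT, a difference of 4.75 (p = 0.829, two-sided exact permutation test). Without BM3 the difference was 22.3 (p = 0.0286, the smallest that 3 against 4 libraries can give in this exact test). Counted per 10000 peaks of the library, the genes held 9.77 (BM1), 9.70 (BM5), 10.1 (BM2), 9.52 (BM6), 9.49 (BM3), 9.52 (BM7), 9.39 (BM4) and 8.38 (BM8) peaks. On this scale the direction turned, to 9.20 ± 0.55 in Lats1-CKO against 9.76 ± 0.23 in WT (SD, n = 4 each; exact permutation p = 0.0571), and the groups overlapped, BM7 lying just above BM6. Without BM3 the difference on this scale was -0.67 (exact permutation p = 0.0571).

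Luminal and basal-like libraries held 57.8 ± 32.0 and 71 ± 15.6 peaks at the 10 genes (SD, n = 4 each; exact permutation p = 0.571), and their ranges overlapped. The difference of 13.25 peaks was -1.33 without BM3 (exact permutation p = 0.971). The receptors held 21 to 37 peaks and the ligands 28 to 52 outside BM3, which had 7 of each. At least 1 peak no farther than 1 kb from a TSS lay at all 10 genes in BM1, BM2 and BM7, at 9 in BM8, at 8 in BM5 and BM6, at 7 in BM4 and at 4 in BM3. Lats1-CKO libraries had 1.5 fewer such genes than WT on average (exact permutation p = 0.457), a difference that was -0.33 without BM3 (exact permutation p = 0.743).

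**Figure D1:**
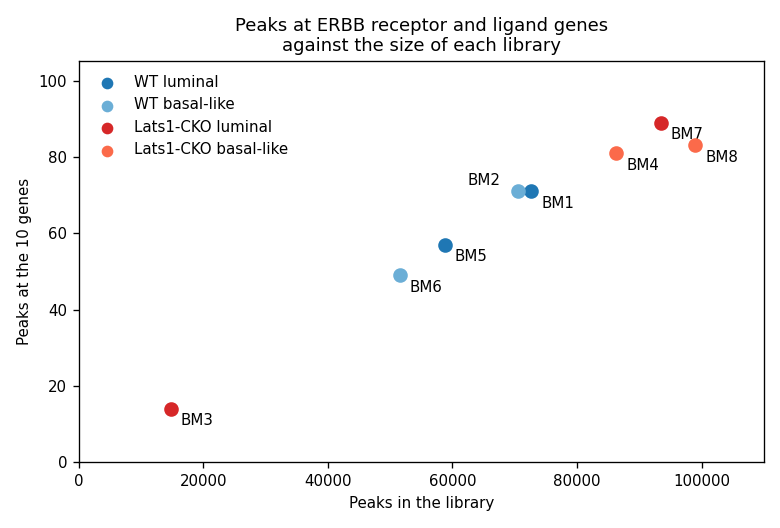
Number of peaks at the 10 ERBB receptor and ligand genes (vertical axis) against all peaks of the library (horizontal axis), 1 point per library, colored by group. The points run from 14 peaks in BM3 to 89 in BM7 and rise with the length of the peak list.

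Peaks of each gene were compared over all 18524 protein-coding genes with a peak, and the highest score percentile within 1 kb of a TSS over the 14571 genes with such a peak. Percentiles were used because MACS2 scores depend on depth and were not normalized between libraries. A library without such a peak counted as 0. A gene was called when the 4 libraries of one side did not overlap the other 4, the smallest p this design allows (0.0286). No adjusted p lay below 1 for any gene (Benjamini-Hochberg over all genes), so calls rest on unadjusted exact tests, which 18 and 163 genes passed for genotype (number of peaks and percentile) and 48 and 136 for population.

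None of the 10 genes was called in any of these comparisons. Among all genes, the number of peaks was higher in Lats1-CKO for 0.0162% and lower for 0.081%, and higher in basal-like cells for 0.259% and lower for 0%. For the percentile at the TSS these shares were 0.398% and 0.721% by genotype and 0.727% and 0.206% by population. Beside such shares, 0 of 10 is no result about these genes in particular. Without BM3, the 3 Lats1-CKO libraries lay above all 4 WT libraries in number of peaks at 11.2% of all genes and below them at 0.0918%, and at none of the 10 in either direction. For the percentile they lay above at 10.3% of all genes and below at 0.789%, and above at 2 of the 10, Erbb2 and Btc. The median difference between Lats1-CKO and WT over the 10 genes was 0.125 peaks and -6.08 percentile points, against 0.25 and -1.28 over all genes tested. Without BM3 these medians were 0.875 and 7.31, against 0.75 and 4.83. Between basal-like and luminal libraries the median difference was 0.625 peaks and 4.60 percentile points, against 0.5 and 5.59 over all genes. These population medians include BM3 among the luminal libraries and were not computed without it.

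**Figure D2:**
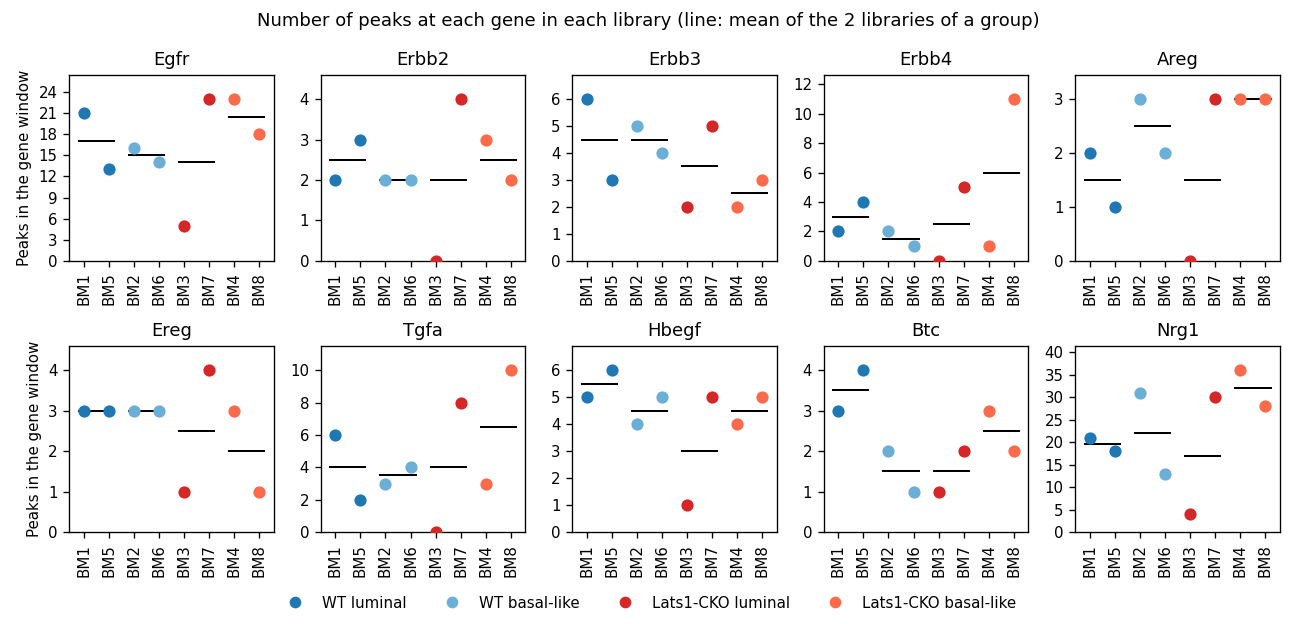
Number of peaks in the window of each gene in each of the 8 libraries, 1 panel per gene with its own axis from 0, libraries ordered and colored by group and the line marking the mean of the 2 libraries of a group. BM3 is at or near the lowest value in most panels, and in no panel do the 4 libraries of a genotype or of a population lie clear of the other 4.

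Per length, the gene windows differed widely in the density of peaks. Hbegf had a mean of 20.95 peaks per 100 kb over the 8 libraries, followed by Erbb3 (11.7), Areg (10.6), Egfr (9.45), Ereg (9.04), Erbb2 (6.38), Tgfa (4.97), Btc (4.04), Nrg1 (2.096) and Erbb4 (0.299). The range over libraries of each gene overlapped that of its neighbors in this order, such as 0.371 to 3.33 for Nrg1 and 0 to 1.01 for Erbb4, whose windows were 1079 and 1086 kb long.

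Egfr (ENSMUSG00000020122, chr11:16752203-16918158 of GRCm38, plus strand), the receptor of EGF, TGFA and amphiregulin, had 21 and 13 peaks in WT luminal (BM1, BM5), 16 and 14 in WT basal-like (BM2, BM6), 5 and 23 in Lats1-CKO luminal (BM3, BM7) and 23 and 18 in Lats1-CKO basal-like libraries (BM4, BM8). Both genotypes and both populations overlapped (differences of 1.25 and 2.25 peaks, exact permutation p = 0.829 and 0.714). Without BM3 the differences were 5.33 and -1.25 (exact permutation p = 0.114 and 0.771). They formed 39 regions, 37 of them intronic. The region with the highest mean percentile, 86.1, was not at the start of the gene but in an intron 78.5 kb downstream (chr11:16830583-16830848), within 1 kb of the TSS of the non-coding gene Egfros. It had a peak in all 8 libraries, at percentiles of 97.9 and 99.2 (BM1, BM5), 98.2 and 91.7 (BM2, BM6), 38.6 and 98.0 (BM3, BM7) and 94.7 and 70.9 (BM4, BM8). A peak here cannot be assigned to either gene. The region over the first exon (chr11:16752056-16752463, 5' UTR) was also open in every library, at 78.8, 58.4, 81.8, 89.4, 31.4, 92.4, 86.9 and 67.7 in the same order.
A single region of the 168 had a peak in at least 3 WT and no Lats1-CKO library. It lay in an Egfr intron, 65.2 kb from the start (chr11:16817314-16817554), with percentiles of 49.0 (BM1), 8.2 (BM5) and 63.6 (BM2), and was missing from the WT basal-like library BM6 as well. The central bases of this region are shown because it is the WT-only one. Capitals mark an AP-1 site (TGANTCA on either strand) and a TEAD site (CATTCC or its reverse complement), the motif of the factors through which the Hippo effector YAP binds DNA (GRCm38, chr11:16817334-16817533, plus strand).
Egfr intronic region, WT only: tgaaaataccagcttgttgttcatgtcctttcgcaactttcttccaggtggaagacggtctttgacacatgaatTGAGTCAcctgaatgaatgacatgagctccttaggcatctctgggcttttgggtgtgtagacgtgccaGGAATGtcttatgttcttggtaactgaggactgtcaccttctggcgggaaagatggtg
Another Egfr intronic region (chr11:16843946-16844099) had a peak in all 4 basal-like libraries, at 55.8 (BM2), 73.9 (BM6), 66.9 (BM4) and 45.6 (BM8). Among luminal libraries BM7 alone had it, at 43.3.

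Erbb2 (ENSMUSG00000062312, chr11:98412470-98437716, plus strand) encodes the receptor without a known ligand that serves as the preferred partner of the others. It had 2 and 3 peaks in WT luminal (BM1, BM5), 2 and 2 in WT basal-like (BM2, BM6), 0 and 4 in Lats1-CKO luminal (BM3, BM7) and 3 and 2 in Lats1-CKO basal-like libraries (BM4, BM8), a mean of 2.25 in each genotype and in each population. The peak over its first exon (chr11:98412315-98412613, 5' UTR) had a percentile of 72.1 and 48.2 in WT luminal, 43.6 and 47.1 in WT basal-like, 76.7 in BM7, and 73.3 and 74.7 in Lats1-CKO basal-like cells, and was missing from BM3. The 3 Lats1-CKO libraries that had it lay above all WT libraries, by a narrow margin over BM1. With BM3 the difference was 3.42 points (exact permutation p = 0.914), and without it 22.1 (exact permutation p = 0.0571). BM4, BM7 and BM8 also had the longest peak lists. Among equal numbers of the highest-scoring peaks of each library, no library kept this peak, so the difference of 0 found there compares nothing. With BM3 kept and peaks above each library's median score, the difference was 38.2 (exact permutation p = 0.143).
Erbb2 also held 1 of 3 regions with a peak in at least 3 Lats1-CKO and no WT library. It lies in the first kilobases of the gene, 1447 bp from the nearest TSS in an intron (chr11:98413793-98414087), with percentiles of 40.4 in BM7, 67.8 in BM4 and 89.2 in BM8. Its center is shown for that reason, with a TEAD site in capitals (GRCm38, chr11:98413840-98414039, plus strand). The 300 bp around the center also held an AP-1 match that the bases shown do not contain.
Erbb2 intronic region, Lats1-CKO only: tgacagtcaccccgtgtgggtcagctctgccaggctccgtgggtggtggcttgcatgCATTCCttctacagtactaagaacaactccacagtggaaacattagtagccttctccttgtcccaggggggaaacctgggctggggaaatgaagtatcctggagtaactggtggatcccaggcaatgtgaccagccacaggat
A region farther into the gene (chr11:98418932-98419244) was present in all WT libraries, at 69.0 (BM1), 62.4 (BM5), 60.6 (BM2) and 32.2 (BM6). It was present in BM7 at 62.3 and in neither Lats1-CKO basal-like library.

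Erbb3 (ENSMUSG00000018166, chr10:128567523-128589652, minus strand) encodes a neuregulin receptor with little kinase activity of its own. It had 6 and 3 peaks in WT luminal (BM1, BM5), 5 and 4 in WT basal-like (BM2, BM6), 2 and 5 in Lats1-CKO luminal (BM3, BM7) and 2 and 3 in Lats1-CKO basal-like libraries (BM4, BM8). Lats1-CKO and WT overlapped, with a difference of -1.5 peaks (exact permutation p = 0.257). Its highest peaks were a pair in an intron 5.79 and 5.07 kb from the start, beside the microRNA gene Mir6917. The first (chr10:128583729-128583992) had percentiles of 89.0 and 97.4 (BM1, BM5), 85.9 and 82.0 (BM2, BM6), 66.4 and 90.7 (BM3, BM7) and 85.1 (BM8), and was missing from BM4. The second (chr10:128584441-128584717) had 84.6, 37.2, 85.8, 31.4, 82.4 and 91.4 in the same 6 WT and luminal libraries and was missing from both Lats1-CKO basal-like libraries. These peaks were present in BM3, although that library lacked a peak at the Erbb3 promoter. Within 1 kb of the TSS the percentile was 59.8 (BM1), 44.1 (BM2), 17.9 (BM6), 79.4 (BM7), 54.6 (BM4) and 83.5 (BM8), with no peak in BM5 and BM3, and the differences of 23.9 by genotype and 15.2 by population lay within the spread (exact permutation p = 0.343 and 0.543), and were 42.1 and 3.62 without BM3 (exact permutation p = 0.114 and 0.914).

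Erbb4 (ENSMUSG00000062209, chr1:68032186-69108059, minus strand), a receptor of neuregulins, HB-EGF and betacellulin, had the sparsest peaks. Its window held 2 and 4 peaks in WT luminal (BM1, BM5), 2 and 1 in WT basal-like (BM2, BM6), 0 and 5 in Lats1-CKO luminal (BM3, BM7) and 1 and 11 in Lats1-CKO basal-like libraries (BM4, BM8). BM8 stood clear of all others, also of BM4 of its own group. Of the 20 regions, 16 had a peak in a single library. The exception with the most libraries was an intronic region near the start of the gene (chr1:69106475-69106807), within 1 kb of the TSS of the non-coding gene Gm16076, at 20.1 in BM1, 18.9 in BM2, 53.5 in BM7 and 64.8 in BM8. These 4 libraries came from 4 groups, with the other library of each group lacking the peak.

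**Figure D3:**
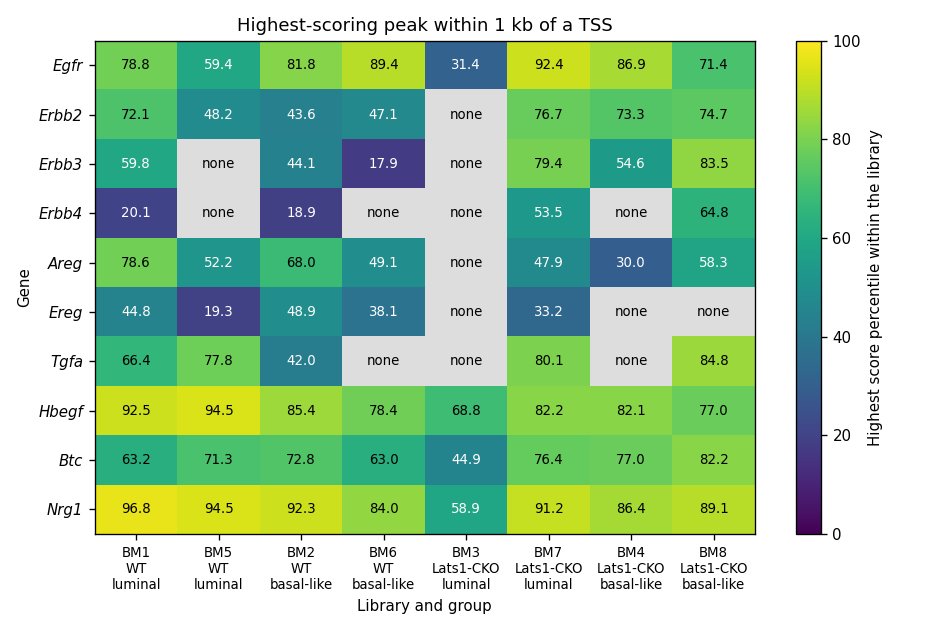
Highest score percentile of a peak within 1 kb of a TSS (color and number, 0 to 100 within the library) for each gene (rows) and library (columns, ordered by group), with none where no such peak was called. Hbegf, Btc, Egfr and Nrg1 had one in all 8 libraries, and Erbb4 in 4.

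Among the ligands, Areg, Ereg and Btc lie on chromosome 5. Areg (ENSMUSG00000029378, chr5:91139599-91148432, plus strand) encodes amphiregulin. It had 2 and 1 peaks in WT luminal (BM1, BM5), 3 and 2 in WT basal-like (BM2, BM6), 0 and 3 in Lats1-CKO luminal (BM3, BM7) and 3 and 3 in Lats1-CKO basal-like libraries (BM4, BM8). The peak over its first exon (chr5:91139441-91139930, 5' UTR) was missing only from BM3. Its percentile was 78.6 and 52.2 in WT luminal, 68.0 and 49.1 in WT basal-like, 47.9 in BM7, and 30.0 and 58.3 in Lats1-CKO basal-like cells. Lats1-CKO and WT overlapped in BM8, with means of 34.1 ± 25.5 and 62.0 ± 13.8 (SD, n = 4 each; exact permutation p = 0.114). Without BM3 the difference of -27.9 points was -16.6 (exact permutation p = 0.229), and without BM8 it was -36.0 (exact permutation p = 0.0286). Among equal numbers of the highest-scoring peaks of each library, no library kept this peak, so the difference of 0 found there compares nothing. With peaks above each library's median score the difference was -35.1 (exact permutation p = 0.257).

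Ereg (ENSMUSG00000029377, chr5:91074622-91093646, plus strand) encodes epiregulin, a ligand of EGFR and ERBB4. It had 3 peaks in each of the 4 WT libraries, 1 and 4 in Lats1-CKO luminal (BM3, BM7) and 3 and 1 in Lats1-CKO basal-like libraries (BM4, BM8). The region at its TSS (chr5:91074184-91074906) was present in all WT libraries, at 44.8 (BM1), 19.3 (BM5), 48.9 (BM2) and 38.1 (BM6), and in 1 Lats1-CKO library, BM7, at 33.2. The region also lies within 1 kb of the TSS of Gm19610. The means of 8.30 ± 16.6 in Lats1-CKO and 37.8 ± 13.1 in WT (SD, n = 4 each) gave the lowest p of the 10 genes (p = 0.0571, two-sided exact permutation test), short of a call since BM7 lay among the WT values. Without BM3 the difference of -29.5 points was -26.7 (exact permutation p = 0.114). With each library reduced to equal numbers of its highest-scoring peaks, and with peaks above each library's median score, it was 0 (exact permutation p = 1 in both), so it rests on peaks below those limits.
By contrast, an intronic region 8.59 kb into Ereg (chr5:91083042-91083378) was open in all 8 libraries. Its percentile was 91.2 and 74.3 (BM1, BM5), 95.2 and 69.6 (BM2, BM6), 38.6 and 88.4 (BM3, BM7) and 90.9 and 97.3 (BM4, BM8), so both libraries without a peak at the promoter among the basal-like cells had this one above a percentile of 90. The center is shown as the leading region of the gene, with 2 AP-1 sites and a TEAD site in capitals (GRCm38, chr5:91083110-91083309, plus strand).
Ereg intronic region: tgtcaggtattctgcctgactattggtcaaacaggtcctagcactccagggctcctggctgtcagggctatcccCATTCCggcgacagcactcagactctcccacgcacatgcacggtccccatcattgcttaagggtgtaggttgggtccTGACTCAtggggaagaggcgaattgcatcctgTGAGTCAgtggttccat

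Tgfa (ENSMUSG00000029999, chr6:86195223-86275719, plus strand), the gene of the EGFR ligand TGFA, had 6 and 2 peaks in WT luminal (BM1, BM5), 3 and 4 in WT basal-like (BM2, BM6), 0 and 8 in Lats1-CKO luminal (BM3, BM7) and 3 and 10 in Lats1-CKO basal-like libraries (BM4, BM8). BM7 and BM8 were the highest and the other library of each of their groups, BM3 and BM4, had 0 and 3. The peak over its first exon (chr6:86195004-86195365, 5' UTR) had percentiles of 66.4 (BM1), 77.8 (BM5), 42.0 (BM2), 80.1 (BM7) and 84.8 (BM8) and was missing from BM6, BM3 and BM4. It thus occurred in 3 of 4 luminal and 2 of 4 basal-like libraries, a difference of -24.4 points for basal-like minus luminal (exact permutation p = 0.486) that was -43.1 without BM3 (exact permutation p = 0.171). An intronic region 24.4 kb into the gene (chr6:86219441-86219901) was found in every library but BM3, at 38.1, 58.4, 55.8, 52.0, 79.2, 51.7 and 70.02 in BM1, BM5, BM2, BM6, BM7, BM4 and BM8. Its center, shown as the leading region of the gene, held an AP-1 site (capitals; GRCm38, chr6:86219571-86219770, plus strand).
Tgfa intronic region: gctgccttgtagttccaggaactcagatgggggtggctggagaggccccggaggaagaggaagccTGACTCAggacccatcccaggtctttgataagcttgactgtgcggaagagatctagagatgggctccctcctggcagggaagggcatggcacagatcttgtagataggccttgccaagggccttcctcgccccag

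Hbegf (ENSMUSG00000024486, chr18:36504927-36515805, minus strand) encodes HB-EGF, a ligand of EGFR and ERBB4. It had 5 and 6 peaks in WT luminal (BM1, BM5), 4 and 5 in WT basal-like (BM2, BM6), 1 and 5 in Lats1-CKO luminal (BM3, BM7) and 4 and 5 in Lats1-CKO basal-like libraries (BM4, BM8). Its promoter peak (chr18:36515569-36516084) was present everywhere, at 92.5 and 94.5 in WT luminal, 85.4 and 78.4 in WT basal-like, 68.8 and 82.2 in Lats1-CKO luminal and 82.1 and 77.0 in Lats1-CKO basal-like cells. Of the 4 WT libraries only BM6 overlapped the Lats1-CKO range. The means were 87.7 ± 7.3 in WT and 77.5 ± 6.3 in Lats1-CKO (SD, n = 4 each; exact permutation p = 0.114). Without BM6 the difference of -10.2 points was -13.3 (exact permutation p = 0.0286), and without BM3 it was -7.29 (exact permutation p = 0.2). Both a region 1.76 kb into the gene (chr18:36513957-36514135) and one upstream of it (chr18:36525556-36525865) were open in all libraries but BM3, at 79.0 to 91.3 and 71.4 to 87.2.

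Btc (ENSMUSG00000082361, chr5:91357261-91402994, minus strand), the gene of betacellulin, had 3 and 4 peaks in WT luminal (BM1, BM5), 2 and 1 in WT basal-like (BM2, BM6), 1 and 2 in Lats1-CKO luminal (BM3, BM7) and 3 and 2 in Lats1-CKO basal-like libraries (BM4, BM8). The WT luminal libraries lay above the WT basal-like ones, which 2 against 2 libraries cannot test, since the smallest exact permutation p is 0.333. The region at its TSS (chr5:91402766-91403174, 5' UTR) was open in all 8 libraries. The highest percentile within 1 kb of a TSS was 63.2 and 71.3 in WT luminal, 72.8 and 63.0 in WT basal-like, 44.9 and 76.4 in Lats1-CKO luminal and 77.0 and 82.2 in Lats1-CKO basal-like cells. BM7, BM4 and BM8 were above all WT libraries and BM3 below them, a difference of 2.56 points with BM3 and 11.0 without (exact permutation p = 0.829 and 0.0571). The longest peak lists were those of BM7, BM4 and BM8. With BM3 kept, the difference was 11.2 among equal numbers of the highest-scoring peaks. BM3 alone kept a Btc peak at the TSS there, so this value rests on 1 library and does not compare the genotypes. With peaks above each library's median score the difference was -8.67, and the BM3 peak, at 44.9, was no longer counted. A second intronic region (chr5:91402312-91402507), at 45.9 in BM1 and 71.3 in BM5, was the only one of the 168 with a peak in both WT luminal and neither WT basal-like library, and it was missing from all Lats1-CKO libraries.

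Nrg1 (ENSMUSG00000062991, chr8:31814551-32884029, minus strand) encodes neuregulin 1, a ligand of ERBB3 and ERBB4, from several promoters. It had 21 and 18 peaks in WT luminal (BM1, BM5), 31 and 13 in WT basal-like (BM2, BM6), 4 and 30 in Lats1-CKO luminal (BM3, BM7) and 36 and 28 in Lats1-CKO basal-like libraries (BM4, BM8). Basal-like libraries had 8.75 more peaks on average than luminal ones, within the spread (exact permutation p = 0.286), and 4 more without BM3 (exact permutation p = 0.543). The 62 regions were intronic in 60 cases. The 5' end of the gene record had a peak in BM2 alone, at a percentile of 16.3. The leading region lay at an internal start 874 kb downstream (chr8:32009401-32009830), beside the TSS of the non-coding gene Gm26578, and was present in all 8 libraries. Its percentile was 96.8 and 94.5 (BM1, BM5), 92.3 and 84.0 (BM2, BM6), 58.9 and 91.2 (BM3, BM7) and 86.4 and 89.1 (BM4, BM8), with genotypes and populations overlapping (exact permutation p = 0.2 and 0.971). The difference by genotype was -10.5 points and, without BM3, -2.99 (exact permutation p = 0.429). By population, basal-like minus luminal, it was 2.56 points and turned to -6.26 without BM3 (exact permutation p = 0.0857). Intronic regions at chr8:32221256-32221547 and chr8:32286670-32286944, 663 and 597 kb from the 5' end, were open in all 8 libraries as well.
The other pair of Lats1-CKO-only regions lay in Nrg1 introns. The region chr8:32002947-32003062 had percentiles of 39.6 (BM7), 21.6 (BM4) and 64.5 (BM8), and chr8:32674918-32675194 had 43.3, 21.6 and 51.8. The former is shown as the higher of the pair (GRCm38, plus strand, the whole region of 116 bp). None of the motifs searched occurred in it, so it carries no capitals.
Nrg1 intronic region, Lats1-CKO only: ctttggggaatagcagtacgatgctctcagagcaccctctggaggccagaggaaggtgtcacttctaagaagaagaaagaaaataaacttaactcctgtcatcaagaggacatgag
A further Nrg1 region (chr8:32334492-32334772) had a peak in all 4 basal-like libraries, at 53.6 (BM2), 60.4 (BM6), 93.7 (BM4) and 18.5 (BM8), and among luminal libraries in BM3 alone, at 2.2. Without BM3 it was the single region of the 168 found in at least 3 basal-like and no luminal library. The share of all regions that meet this rule without BM3 was not computed, and with BM3 it was 0.894%.

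**Figure D4:**
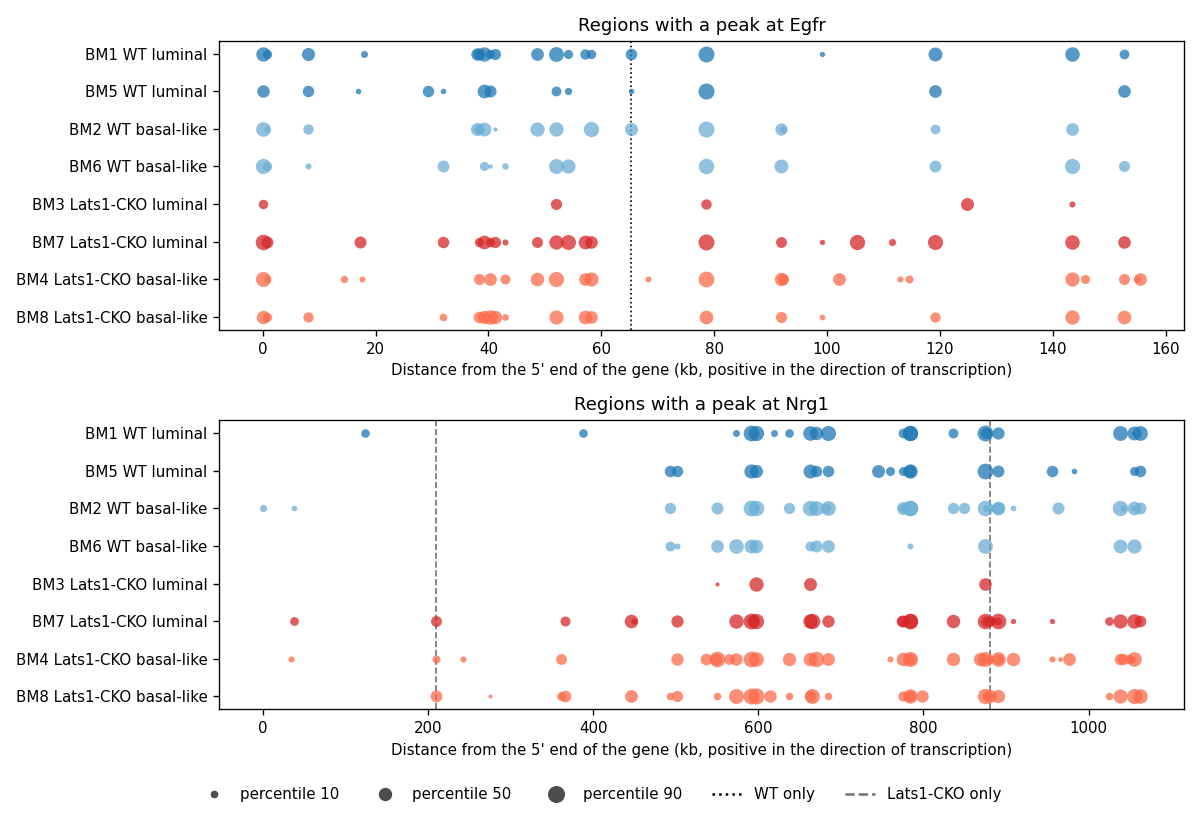
Regions with a peak along Egfr (upper panel) and Nrg1 (lower panel) in each library (rows), by distance from the 5' end of the gene in kb, with larger points for a higher score percentile. The dotted line marks the WT-only region of Egfr and the dashed lines both Lats1-CKO-only regions of Nrg1, whose main cluster of regions begins far downstream of the 5' end.

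Over all 168 regions, 141 were intronic and 24 lay within 1 kb of a TSS of their gene. A peak in a single library accounted for 75 regions (44.6%, against 44.5% of all regions), and 9 regions (5.36%, against 5.95%) had one in all 8 libraries. These 9 were 3 each of Egfr and Nrg1 and 1 each of Ereg, Hbegf and Btc. In 62 regions no WT library had a peak and in 29 no Lats1-CKO library had one. The share of all regions was not computed for these counts, and the longest lists were those of BM4, BM7 and BM8, all Lats1-CKO. Peaks in at least 3 Lats1-CKO and no WT libraries occurred at 3 of 168 regions (1.79%), against 1.51% of all regions, and with or without BM3 the count was 3 (background without BM3 1.5%). The reverse held at 1 region (0.595%), against 0.658% (0.67% without BM3). No region of the 10 genes was confined in this way to basal-like or to luminal libraries, as 0.894% and 0.192% of all regions were. The counts at the 10 genes lay near the background.

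The groups of 2 libraries were compared by presence as well. Of the 168 regions, 1 (0.595%) had a peak in both WT luminal and neither WT basal-like library, against 1.17% of all regions, and 2 (1.19%) the reverse, against 1.03%. These were the Btc region and the Egfr and Nrg1 regions found in all basal-like libraries. In basal-like cells, 6 regions (3.57%) had a peak in both Lats1-CKO and neither WT library, against 5.1% of all regions. They were the 3 Lats1-CKO-only regions of Erbb2 and Nrg1, another Nrg1 intron region (chr8:32523406-32523546), an Egfr one (chr11:16809071-16809634) and a Tgfa one (chr6:86261752-86261860). Of the 6, none was left among equal numbers of the highest-scoring peaks. The reverse held at 3 (1.79%), against 0.877%: the Ereg promoter, the second Erbb3 intron region and the Erbb2 region present in all WT libraries. Because BM3 had so few peaks, no such comparison was made for Lats1-CKO luminal cells.

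**Figure D5:**
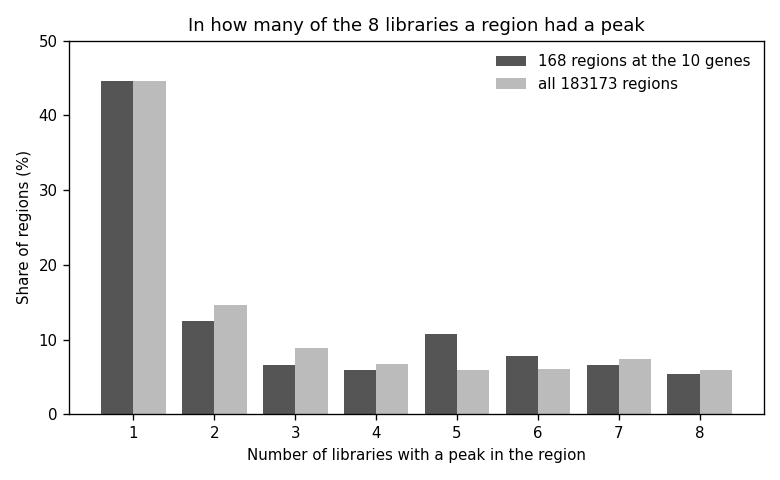
Share of regions (%) by the number of libraries, 1 to 8, that had a peak in them, for the 168 regions at the 10 genes (dark bars) and all 183173 regions (light bars). In both, 44.6% and 44.5% of regions came from a single library, and the dark bar exceeds the light one most at 5 libraries (10.7% against 5.89%).

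Short motifs were counted on both strands in the 300 bp around the center of each region. Many regions were narrower than this window, so a match counted for a region can lie outside it. The sequences shown are shorter than the window, which held a further RUNX match at the Egfr region shown and a further AP-1 match at the Tgfa one. The AP-1 motif TGANTCA occurred in 61 of the 168 regions (36.3%, against 29.5% of all regions) and the TEAD motif CATTCC in 46 (27.4%, against 21.03%). The RUNX motif TGTGGT occurred in 35 (20.8%, against 27.8%) and the GRHL motif AACNNGTT in 10 (5.95%, against 4.75%). The estrogen response element, taken as the half-sites GGTCA and TGACC with 3 bases between, occurred in none, against 0.0841% of all regions. Nrg1 held 27 and Egfr 16 of the regions with AP-1. Among the 51 regions open in 5 or more libraries, 23 (45.1%) had AP-1 and 16 (31.4%) had TEAD, and among the 75 regions of a single library 24 (32%) and 13 (17.3%). The same split was not made over all regions, so it says nothing about these genes in particular. These shares describe letters in windows, and overlap of the motifs with one another was allowed.

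Of 24 other genes of the pathway, which comprise further ligands, sheddases and their partners, adaptors and effectors, and feedback inhibitors, none was called for genotype or population in either measure (the percentile at the TSS could be compared for 22). The median difference between Lats1-CKO and WT was 0.875 peaks and -4.08 percentile points, and between basal-like and luminal 1 peak and 2.74 points. Without BM3 the medians by genotype were 1.58 peaks and 2.85 points, and those by population were not computed. Without BM3 the 3 Lats1-CKO libraries had more peaks than all WT libraries at 4 of the 24, against 11.2% of all genes, and lay apart in the percentile at none. Named after their values were seen, these were the neuregulin gene Nrg2, Sos1 (the RAS exchange factor), Cblb (a ubiquitin ligase) and Errfi1 (an inhibitor of ERBB kinases). Sos1 had 4 and 3 peaks in WT luminal (BM1, BM5), 4 and 3 in WT basal-like (BM2, BM6), 1 and 6 in Lats1-CKO luminal (BM3, BM7) and 6 and 11 in Lats1-CKO basal-like libraries (BM4, BM8). Peaks near the TSS of feedback inhibitors were present at all 7 genes in every library but BM3, where 4 had one.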

How the data were processed

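Nuclei of sorted cells were treated with Tn5 and sequenced, 8 libraries in all. Per the labels and the study's methods, the authors trimmed reads with cutadapt, aligned them uniquely to mm10 with Bowtie (1.0.0), and removed mitochondrial and duplicate reads (Picard 2.3.0) and long fragments. They called peaks with MACS2 in each library separately (2.1.1.20160309 in the submitters' processing notes, another version in the methods) and removed the ENCODE blacklist. The authors deposited 1 list of peak positions per library with a score, taken from its values to be that of MACS2 (at least 13 in every library) and not normalized between libraries. Scores were therefore turned into ranks among the peaks of each list (percentiles). Since read counts are not part of the lists, the depth of each library is unknown, counting error has no interval here, and the DiffBind test of the methods was not run.

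GENCODE M21 supplied genes and TSSs and RefSeq's GRCm38.p6 the sequence, both of the files' build. Overlap was at least 1 bp. The 4 Lats1-CKO were compared with the 4 WT libraries, and the 4 basal-like with the 4 luminal ones, by two-sided exact permutation tests of the difference in means, with Benjamini-Hochberg adjustment over all genes; the other factor was ignored. Regions were counted by presence (at least 3 libraries of one side, none of the other). The 10 genes and all lists were chosen with earlier results of these data known, and the counts by groups of 2 libraries and the peak numbers per 10000 without BM3 were added after the data had been seen. Named were all 10 genes, and for each its region with the highest mean percentile, its region at the TSS and every region that met a presence rule. Alternatives were each library left out in turn, 14753 peaks per library, peaks above the library's median score, peak numbers per 10000, 5 kb around TSSs without the gene body, 5 kb in place of 1 kb, midpoints, the 5' end of the gene only, and presence in all 4 libraries. The counting of peaks in windows was checked against a direct count on these peak lists. The exact test was checked on simulated peak numbers and the presence rule on planted regions. Python 3.11.15, numpy 2.4.6, scipy 1.17.1 and matplotlib 3.10.9 were used. RNA-seq files were not analysed here.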

Additional observations from a re-analysis of the deposited data

Results flagged for a closer look

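Among 88 sets of 4 libraries (the total of peaks, the number of genes with a peak at the TSS, and each gene's number of peaks and percentile at the TSS, on each side of each comparison), 14 had a library whose gap to the nearest other took up nearly the whole range of the set (Dixon's test). Chance flags about 5% of sets of continuous values, and the flagged sets share libraries. Many sets here hold small whole numbers or zeros, where ties leave an odd value flagged even if it differs by 1 peak. The 14 flags therefore cannot be read against that 5%. BM3 accounted for 6 of the 14 flags. It had 14 peaks at the 10 genes, against 81 to 89 in the other Lats1-CKO libraries. It had 0 peaks at Areg, against 3 in each of those. It lacked the Erbb2 promoter peak, counted as 0, against 73.3 to 76.7. Its percentile was 44.9 at Btc, against 76.4 to 82.2, and 58.9 at Nrg1, against 86.4 to 91.2 in the Lats1-CKO and 91.2 to 96.8 in the luminal libraries.

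BM8 accounted for 3, all among the basal-like libraries: 11 peaks at Erbb4 (1 to 2 in the others), 10 at Tgfa (3 to 4) and 1 at Ereg (3 in each). The remaining 5 were Erbb2 with 3 peaks in BM5 (2 in the other WT libraries) and 3 in BM4 (2 in the other basal-like ones), Areg with 2 in BM6 (3 in the other basal-like ones), the Erbb2 percentile of 72.1 in BM1 (43.6 to 48.2 in the other WT libraries) and the Ereg percentile of 33.2 in BM7 (no peak in the other Lats1-CKO libraries).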

How the results depend on the processing

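The lists give no depth, BM3 was short, and the absence of a peak says only that none was called. Of 672 recomputed values, 569 neither changed sign nor crossed the threshold (counts: within 1.5 times), 35 of them differences that became 0, 71 reversed, 28 moved and 4 passed the threshold only under the alternative, and the cause was not tested. No paired analysis was possible because the labels carry no replicate numbers. Libraries were not left out of the counts by groups of 2, where 1 library would remain.

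Lats1-CKO minus WT at the 10 genes was 4.75 peaks, -2 with equal numbers of peaks, -1.25 within 5 kb of a TSS without the gene body and -0.57 per 10000 peaks (-0.67 without BM3 on that scale, an alternative chosen after the data were seen), and from -2.67 to 22.3 with a library left out (below 0 without BM7, and without BM8, where it was -0.67). Basal-like minus luminal was 13.25, then -1.5 with equal numbers and -0.28 per 10000 (-0.32 without BM3), and from -1.33 (without BM3) to 23.7. The number of genes with a peak no farther than 1 kb from a TSS differed by -1.5 for genotype (0.5 with peaks above the median score) and by 0.5 for population (-0.5 with equal numbers, from -0.83 without BM3 to 1.17). Lats1-CKO-only regions numbered 3, then 0 with equal numbers or all 4 libraries required, 1 with peaks above the median or within 5 kb of a TSS, and 0 to 4 with a library left out (0 without BM4, BM7 or BM8, 4 without BM1 or BM6). WT-only regions numbered 1, then 0 above the median, within 5 kb or with all 4 required, and 0 to 4 (0 without BM1, BM2 or BM5, 2 without BM4, 4 without BM7, 3 without BM8). Basal-like-only regions numbered 0, then 3 above the median and 0 to 2 (1 without BM1, BM3 or BM5, 2 without BM7), and luminal-only regions 0 to 1 (1 without BM6). Of the counts by groups of 2, the 6 Lats1-CKO basal-like regions became 0 with equal numbers and 1 within 5 kb, the 3 opposite ones 0 above the median, the 2 WT basal-like regions 1 with equal numbers and 0 within 5 kb, and the 1 WT luminal region 0 with equal numbers.

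Single genes turned as follows, none of them past the threshold in the reported values. With equal numbers of peaks, genotype differences in number of peaks became 0.5 (Btc), 0.5 (Ereg) and -1.25 (Nrg1), and Hbegf reached -2 (exact permutation p = 0.0286). The population differences became -0.5 (Egfr), -0.25 (Nrg1) and -0.25 (Tgfa), and those of the percentile became 7.65 (Egfr, genotype), -11.2 (Btc, population) and -27.9 (Nrg1, population). The value of -11.2 for Btc came from BM3 alone, the only library that kept a Btc peak at the TSS. The genotype difference of the percentile became 0 for Areg, Ereg, Erbb2, Erbb3 and Erbb4, and for Ereg also with peaks above the median. In these cases no library kept a peak at the TSS, so the zeros compare nothing. With peaks above the median, the percentile differences were -8.67 (Btc) and 5.18 (Tgfa) for genotype and -1.13 (Areg), -0.17 (Erbb2) and -0.27 (Erbb3) for population, and the differences in number 0.75 (Btc, population), 0.75 (Erbb3, genotype) and 0.5 (Ereg, population). Per 10000 peaks the number differed by -0.072 (Areg) and -0.039 (Tgfa) for genotype and by -0.37 (Egfr) and -0.10 (Hbegf) for population. Within 5 kb without the gene body it was -0.5 (Areg, genotype) and -0.5 (Tgfa, population), and with 5 kb in place of 1 kb the percentile was 1.05 (Egfr, genotype) and -13.4 (Erbb3, population).

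With a library left out, genotype differences in percentile ranged from -1.47 to 11.0 (Btc), -14.1 to 6.21 (Egfr), -3.40 to 22.1 (Erbb2) and -20.8 to 8.41 (Tgfa), and population differences from -8.24 to 17.9 (Areg), -5.93 to 19.6 (Erbb2), -12.1 to 14.2 (Erbb4), -11.6 to 4.67 (Ereg) and -6.26 to 6.38 (Nrg1). Genotype differences in number ranged from -0.083 to 1 (Areg), -0.67 to 5.33 (Egfr), -0.25 to 3.42 (Erbb4), -0.083 to 10.6 (Nrg1) and -0.083 to 3.25 (Tgfa), and population differences from -1.25 to 4.75 (Egfr), -1.17 to 0.17 (Erbb3), -1.42 to 1.92 (Erbb4), -0.83 to 0.25 (Ereg), -0.83 to 0.83 (Hbegf) and -0.67 to 2.33 (Tgfa).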
